A study of Mus musculus with 32 samples.

Results

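A set of 8 genes of the alveolar surfactant system was followed through mouse lung tumors in which *Lkb1* was present, lost or restored. They were taken by symbol from the gene tables, and all 8 of the 8 symbols were among the 53558 genes listed. *Sftpa1*, *Sftpb*, *Sftpc* and *Sftpd* encode the 4 surfactant proteins. *Abca3*, *Lamp3*, *Napsa* and *Lpcat1* encode proteins that build or fill the lamellar body, the organelle in which surfactant is stored.

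Tumors were initiated by Lenti-Cre given into the trachea, and Cre switched on oncogenic *KrasLSL-G12D* together with a tdTomato reporter (*Rosa26LSL-tdTomato*). The first group, *KT*, carried only these alleles, kept wild-type *Lkb1* (gene symbol *Stk11*) and was untreated (n = 4 libraries). All other mice were also *Lkb1XTR/XTR*, an allele whose gene trap is turned on by the same Cre and can be cut out by FLPo-ERT2 when tamoxifen is given, so that they differed from *KT* at this locus in every cell of the mouse. By the study's account, *KT* mice also received a lower dose of Lenti-Cre than the *Trp53* wild-type *Lkb1XTR/XTR* mice, so dose cannot be told apart from genotype against *KT*. The restored group carried *Rosa26LSL-tdTomato/FLPo-ERT2* and received tamoxifen (n = 7). The non-restored group (n = 10) joined a control arm that lacked FLPo-ERT2 and received tamoxifen (4 libraries) with an arm that carried FLPo-ERT2 and received corn oil vehicle (6 libraries). The last 2 groups were also *Trp53flox/flox*, so that Cre deleted *Trp53* in the same cells. The first of these was non-restored (7 libraries of 4 animals), again with a tamoxifen arm that lacked FLPo-ERT2 (2 libraries) and a vehicle arm that carried it (5 libraries). The second carried FLPo-ERT2, received tamoxifen and was restored (4 libraries of 4 animals). Treatment lasted 2 weeks, with tamoxifen in doses of 4 mg. Tumors were collected 24 to 27 weeks after initiation in the *Trp53* wild-type groups and after 16 to 19 weeks in the *Trp53*-deficient groups. All restored libraries came from females, whereas the *KT* group held 2, the non-restored group 3 and the *Trp53*-deficient non-restored group 3 libraries of males. Per the labels, neoplastic cells were sorted after removal of blood, endothelial and red blood cells.

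Surfactant is a film of phospholipid and protein that lowers surface tension in the alveolus, and it is made by the alveolar type II (ATII) cell. Its main lipid, dipalmitoyl phosphatidylcholine, is remodeled by acyltransferases such as LPCAT1 and pumped into lamellar bodies by the transporter ABCA3. SFTPB and SFTPC are small hydrophobic proteins that spread the lipid film, and the aspartic protease napsin A (*Napsa*) takes part in cutting their precursors. SFTPA1 and SFTPD are collectins, secreted lectins that bind microbes. LAMP3 (DC-LAMP) is a membrane protein of the lamellar body in ATII cells and of lysosome-related compartments in mature dendritic cells.

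Read depth was sufficient for all 8 genes in every library, which held 1302482 to 5943951 expected counts in total. *Stk11* stood at 16.6 to 27.3 CPM (read counts scaled to a common library size) in *KT*, at 0 to 1.07 CPM in non-restored and at 11.6 to 22.4 CPM in restored libraries. In the *Trp53*-deficient groups it stood at 0 to 0.772 CPM without and at 8.50 to 14.9 CPM with restoration. Several libraries stood apart. Restored libraries 1 and 6 held summed alveolar macrophage markers up to 1497 CPM, and the medians of the 5 groups were 24.7 to 68.0 CPM. Non-restored library 8 and *Trp53*-deficient non-restored library 7 held the mucin *Muc5b*, a gene of airway secretory cells, at 6602 and 12933 CPM. *Muc5b* was singled out after its values were seen. It was one of 10 airway markers on the list, and in no library did *Scgb1a1* exceed 226 CPM, *Foxj1* 3.28 CPM or *Krt5* 1.03 CPM. In the 2 libraries high in *Muc5b* the 10 markers summed to 6726 and 13092 CPM. Nearly all of each sum was *Muc5b*, and the other airway markers added little. *Muc5ac*, the other mucin on the list, stood at 97.8 CPM in non-restored library 8 and 117 CPM in *Trp53*-deficient non-restored library 7. In the other libraries it ran from 0.200 to 44.3 CPM.

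Of the 8 genes, 5 had a promoter in the RefSeq table for GRCm38.p6. The 250 bases before the start are shown for *Sftpa1*, the most variable of the 8 genes, for *Sftpb*, the least variable surfactant protein gene, and for *Lamp3*, whose window held the most motif matches. Capitals mark matches to 4 motifs of transcription factors that act on surfactant genes and to the TATA box, a motif added after the sequences were seen.
Sftpa1: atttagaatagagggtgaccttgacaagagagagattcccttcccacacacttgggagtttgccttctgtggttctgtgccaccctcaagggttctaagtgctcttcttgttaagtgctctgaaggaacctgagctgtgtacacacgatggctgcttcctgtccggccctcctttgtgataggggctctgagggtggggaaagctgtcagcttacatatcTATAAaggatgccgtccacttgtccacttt
Sftpb: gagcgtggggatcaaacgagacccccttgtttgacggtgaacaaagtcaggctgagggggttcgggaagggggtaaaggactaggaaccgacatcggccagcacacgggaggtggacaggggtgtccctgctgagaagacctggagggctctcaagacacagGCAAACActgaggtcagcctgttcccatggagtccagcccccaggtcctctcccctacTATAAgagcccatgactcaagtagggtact
Lamp3: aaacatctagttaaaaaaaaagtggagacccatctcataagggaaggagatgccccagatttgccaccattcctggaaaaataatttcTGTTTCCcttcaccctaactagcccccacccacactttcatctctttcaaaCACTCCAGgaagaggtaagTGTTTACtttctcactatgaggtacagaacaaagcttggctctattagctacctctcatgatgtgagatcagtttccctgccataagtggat
The *Sftpa1* window is chr14:41131538-41131787 on the plus strand, the *Sftpb* window is chr6:72304360-72304609 on the plus strand and the *Lamp3* window is chr16:19706366-19706615 on the minus strand. The motifs were searched on both strands as CACTNNAG for NKX2-1, TTGCNNAA for C/EBP, TGTTTNC for FOXA, TGACGTCA for CREB and TATAA for the TATA box. They were present in 12.9%, 9.56%, 17.8%, 1.55% and 22.8% of all 32851 windows of this length. The 2 capital runs of *Sftpb* are a FOXA match that begins 88 bases before the start and a TATA match at 30 bases. The *Sftpa1* window held 1 match, a TATA box that also begins 30 bases before the start. The *Lamp3* window held an NKX2-1 match at 111 bases and FOXA matches at 162 and 92 bases. In the 2 windows not shown, *Abca3* held an NKX2-1 match at 200 bases and *Lpcat1* held none of the 5 motifs. No C/EBP or CREB match was found in any of the 5 windows, which says only that these letters are not there.

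In the GENCODE M21 annotation of GRCm38, *Sftpa1* lies at chr14:41131782-41136452 on the plus strand and *Sftpd* at chr14:41172214-41185149 on the minus strand of the same chromosome. *Sftpc* is also on chromosome 14, at chr14:70520949-70524081 (minus). *Sftpb* lies at chr6:72304610-72314371 (plus), *Abca3* at chr17:24351950-24410201 (plus), *Lamp3* at chr16:19653378-19706375 (minus), *Napsa* at chr7:44572380-44586862 (plus) and *Lpcat1* at chr13:73467197-73516422 (plus). *Abca3* overlaps 2 genes on the other strand, *Gm25618* and *D330041H03Rik*, and *Napsa* overlaps *Gm15396*. Use of strand in the counting is not given in the sources used here, so reads of these partners cannot be told apart from reads of *Abca3* and *Napsa*.

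The surfactant genes were among the most abundant transcripts of these tumor cells. By TPM (a relative transcript abundance that divides by gene length), *Sftpc* had the highest median of all genes in the *KT* group, at 63291 TPM, and in the non-restored and restored groups, at 51058 and 73788 TPM. *Sftpa1* followed at 14275 TPM in *KT*, 7243 TPM in non-restored and 16915 TPM in restored libraries. *Sftpb*, at 6140, 5059 and 5946 TPM in the same order, came next. The median TPM then stepped down through *Sftpd*, *Lamp3*, *Napsa* and *Lpcat1* to *Abca3* in both *KT* and non-restored libraries. *Abca3* was lowest of the 8 genes in all 5 groups, at 120 to 214 TPM by median. In the restored group *Lpcat1* (698 TPM) stood above *Napsa* (594 TPM), a pair whose library ranges overlapped. Together the 8 genes made up 5.22 to 10.0% of all TPM in *KT*, 0.574 to 9.82% in non-restored and 5.50 to 12.99% in restored libraries. In the *Trp53*-deficient groups the share was 0.667 to 6.16% without and 4.26 to 6.89% with restoration. In the *Trp53*-deficient non-restored group *Sftpc* stood at 14054 TPM, the median of *Sftpb* (5602 TPM) was above that of *Sftpa1* (1640 TPM) and *Lamp3* (724 TPM) was above *Sftpd* (675 TPM). Neighbors in these orders often could not be separated. In restored libraries *Sftpa1* (6867 to 17384 TPM) overlapped *Sftpb* (4197 to 8130 TPM) and *Sftpd* (1265 to 2172 TPM) overlapped *Lamp3* (784 to 1474 TPM), whereas *Sftpc* (36910 to 101488 TPM) stood clear of all the others. The effective length that RSEM used for *Sftpa1* ran from 1472 to 2191 bases between libraries, whereas that of *Sftpb* ran from 1270 to 1341 bases, so its TPM moved with this estimate as well as with its reads.

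Among the collectins, *Sftpa1* was the gene that differed most between *Trp53* wild-type groups. Its values were 9502, 24493, 24993 and 21896 CPM in the 4 *KT* libraries. Non-restored libraries ran from 564 through a median of 9720 to 15126 CPM, and restored libraries from 9070 through 25284 to 27468 CPM. *KT* library 1 and restored libraries 4 and 5 (9070 and 11453 CPM) fell within the non-restored range, and the other 5 restored libraries lay above every non-restored library. The fitted fold of restored over non-restored was 2.34, a log2 fold change of 1.23 (SE 0.41, 95% interval 0.36 to 2.09), with an adjusted p of 0.147 by edgeR's quasi-likelihood test and of 0.05002 by DESeq2, against a threshold of 0.05. For non-restored against *KT* it was -1.17 (SE 0.48, adjusted p = 0.162). The 2 comparisons share the 10 non-restored libraries. Without non-restored library 8 the values were 1.08 (adjusted p = 0.0539) and -1.03 (adjusted p = 0.0690).

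*Sftpd*, the other collectin gene, held 842, 2069, 2053 and 1727 CPM in *KT*. It ran from 111 through 1141 to 1599 CPM in non-restored and from 922 through 1432 to 1786 CPM in restored libraries. No non-restored library reached the *KT* median, but the ranges of all 3 groups overlapped. Fitted log2 fold changes were 0.41 (SE 0.32) for restored against non-restored and -0.68 (SE 0.37) for non-restored against *KT*, with adjusted p of 0.593 and 0.315 in edgeR.

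Of the hydrophobic surfactant proteins, *Sftpc* spread widely and *Sftpb* did not. *Sftpc* stood at 19630, 36531, 30871 and 30424 CPM in *KT*. It ran from 1489 through 22656 to 34349 CPM in non-restored and from 14729 through 35375 to 48168 CPM in restored libraries. Again restored libraries 4 and 5 were the lowest of their group, and 4 of the 7 restored libraries lay above every non-restored one. On the log2 scale the fitted difference was 0.66 (SE 0.39, 95% interval -0.14 to 1.46, adjusted p = 0.443 in edgeR) for restored against non-restored and -0.46 (SE 0.46, adjusted p = 0.613) for non-restored against *KT*.

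*Sftpb* held 5460, 6619, 6880 and 8761 CPM in *KT*, 1987 through 4796 to 10585 CPM in non-restored and 4461 through 6535 to 7391 CPM in restored libraries. The highest *Sftpb* value of all 32 libraries belonged to non-restored library 4, whose *Sftpc* (8087 CPM) was the second lowest of its group. Here the log2 fold changes were 0.20 (SE 0.22, 95% interval -0.26 to 0.66) for restored against non-restored and -0.36 (SE 0.26) for non-restored against *KT*, with adjusted p of 0.737 and 0.471 in edgeR.

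**Figure D1:**
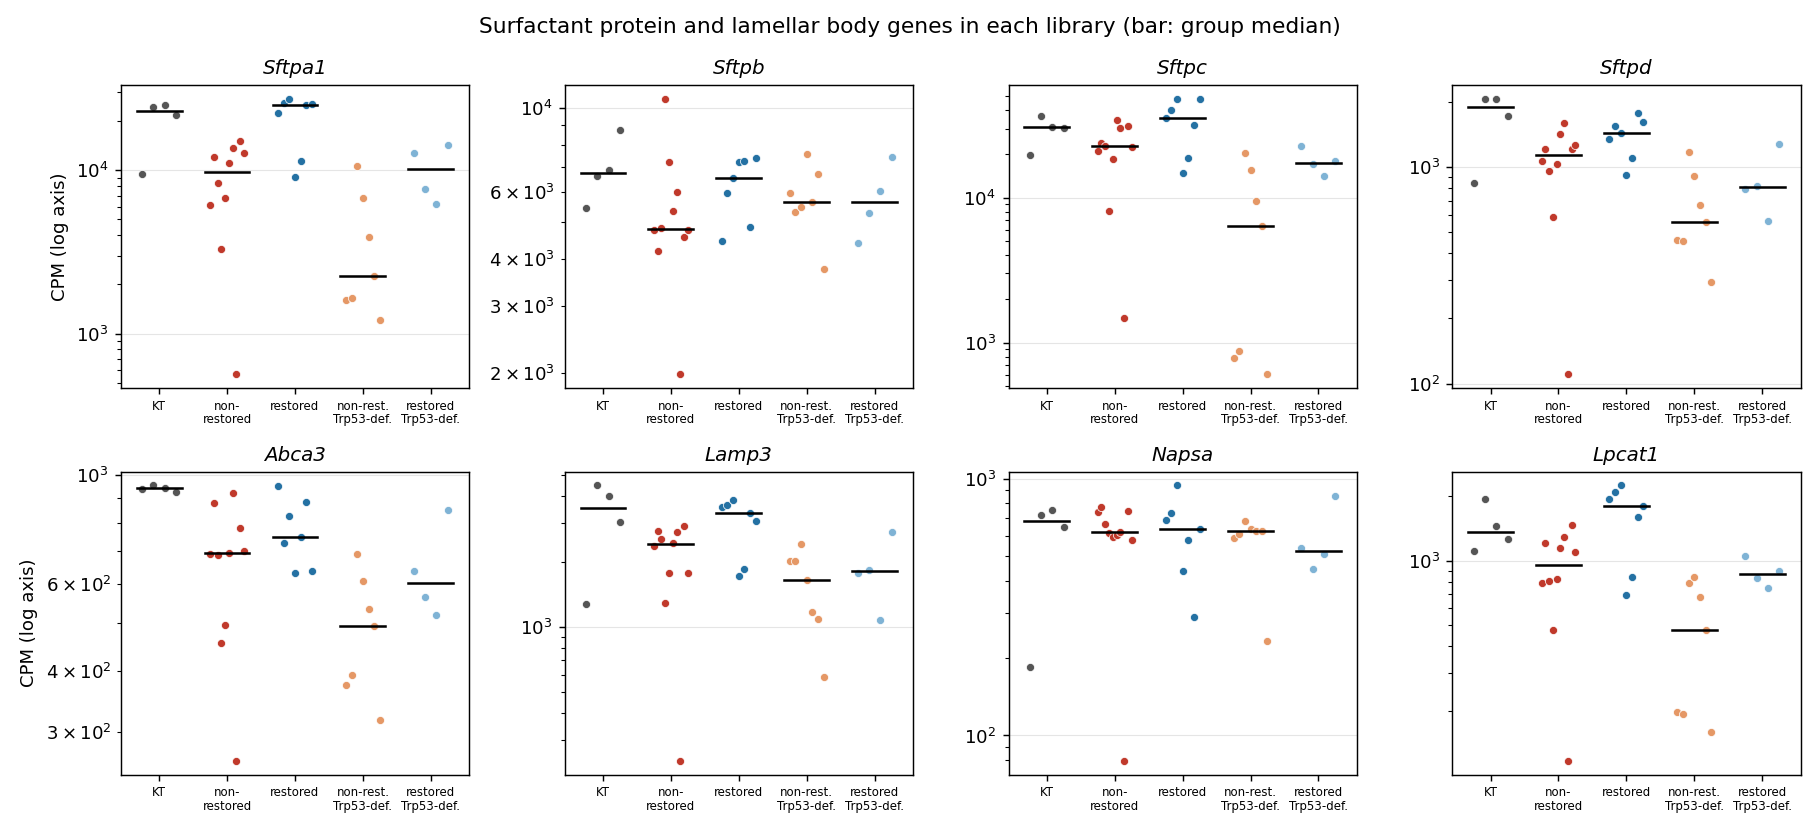
Each point is 1 library, plotted as CPM on a log axis for the 8 genes in the 5 groups, and the bar is the group median. *Sftpa1* in restored libraries lies in a cluster of 5 near 25284 CPM and a pair at 9070 and 11453 CPM, while non-restored library 8 is the lowest point of its group in every panel.

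Among the lamellar body genes, the lipid transporter *Abca3* was the steadiest in *KT*, at 939, 953, 941 and 924 CPM. Non-restored libraries ran from 262 through 693 to 920 CPM and restored libraries from 632 through 748 to 951 CPM. The *KT* and non-restored ranges lay next to each other without overlap, with the highest non-restored library at 920 CPM and the lowest *KT* library at 924 CPM. Among all genes tested, 3.88% had ranges that did not overlap in this comparison, and *Abca3* was 1 such gene of the 8. In TPM the ranges of *Abca3* did overlap, at 202 to 223 TPM in *KT* and 56.4 to 236 TPM in non-restored libraries. Non-restored against *KT*, the log2 fold change was -0.52 (SE 0.21, 95% interval -0.96 to -0.08, adjusted p = 0.157 in edgeR), and that of restored against non-restored was 0.24 (SE 0.18, adjusted p = 0.583).

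*Lpcat1*, the acyltransferase of surfactant lipid remodeling, held 1110, 1932, 1455 and 1267 CPM in *KT*. It ran from 117 through 959 to 1474 CPM in non-restored and from 694 through 1796 to 2246 CPM in restored libraries. As for *Sftpa1*, 5 of the 7 restored libraries lay above every non-restored library and libraries 4 and 5 lay within the non-restored range. Its log2 fold change of restored against non-restored was 0.80 (SE 0.34, 95% interval 0.09 to 1.50, adjusted p = 0.259 in edgeR) and that of non-restored against *KT* was -0.65 (SE 0.40, adjusted p = 0.377).

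*Lamp3* held 1273, 4491, 4033 and 3059 CPM in *KT*, with library 1 again lowest. Non-restored libraries ran from 240 through 2403 to 2925 CPM and restored libraries from 1709 through 3350 to 3831 CPM, 5 of them above every non-restored library. Here the fitted log2 difference was 0.53 (SE 0.34, adjusted p = 0.492 in edgeR) for restored against non-restored and -0.63 (SE 0.40, adjusted p = 0.391) for non-restored against *KT*.

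*Napsa* had nearly the same median in the *Trp53* wild-type groups. It held 186, 724, 753 and 647 CPM in *KT*, 79.7 through 618 to 776 CPM in non-restored and 290 through 636 to 940 CPM in restored libraries. Apart from *KT* library 1, non-restored library 8 and restored library 6, the libraries of these groups lay between 438 and 940 CPM. The log2 fold changes were 0.03 (SE 0.33, 95% interval -0.65 to 0.72, adjusted p = 0.982 in edgeR) for restored against non-restored and 0.06 (SE 0.40, 95% interval -0.77 to 0.88, adjusted p = 0.959) for non-restored against *KT*.

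As a set, none of the 8 genes passed an adjusted p of 0.05 for restored against non-restored in edgeR's quasi-likelihood test (0 of 8, with 1.87% of the 12636 genes tested passing), and DESeq2 also called 0. At an unadjusted p under 0.05 there were 2, *Sftpa1* and *Lpcat1*, against 15.1% of all genes. Ranges of the 2 groups overlapped for all 8 genes, and 0.562% of all genes had ranges apart. All 8 log2 fold changes were above 0, with a median of 0.47 beside a median of -0.01 over all genes tested. For non-restored against *KT*, 0 of 8 passed in edgeR (5.86% of all genes did) and 0 in DESeq2. The 2 with an unadjusted p under 0.05 were *Sftpa1* and *Abca3*, against 20.8% of all genes. In this comparison 7 of the 8 log2 fold changes were below 0, and the median was -0.57 beside 0.03 over all genes. Because fewer ATII-like cells and less RNA per cell give the same reading in sorted bulk samples, these cannot be told apart for any of the genes. The labels do not say whether the libraries of a *Trp53* wild-type group came from separate mice, and by the study's own account the non-restored and restored ones held more libraries than mice, so the p-values describe the spread between these libraries only.

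For restored against *KT* cells, all 8 fitted differences were small beside their intervals. In edgeR, 0 of 8 passed the test (0.459% of all genes did), 0 had an unadjusted p under 0.05 (10.5% of all genes) and DESeq2 called 0. For no gene of the 8 were the ranges separate, as they were for 2.75% of all genes. The log2 fold changes of restored against *KT* lay between -0.29 for *Abca3* and 0.20 for *Sftpc*, with 4 of 8 above 0. For *Sftpa1* the value was 0.05 with a 95% interval from -1.06 to 1.16. For *Abca3*, the gene with the narrowest interval in this comparison, it ran from -0.76 to 0.19.

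**Figure D2:**
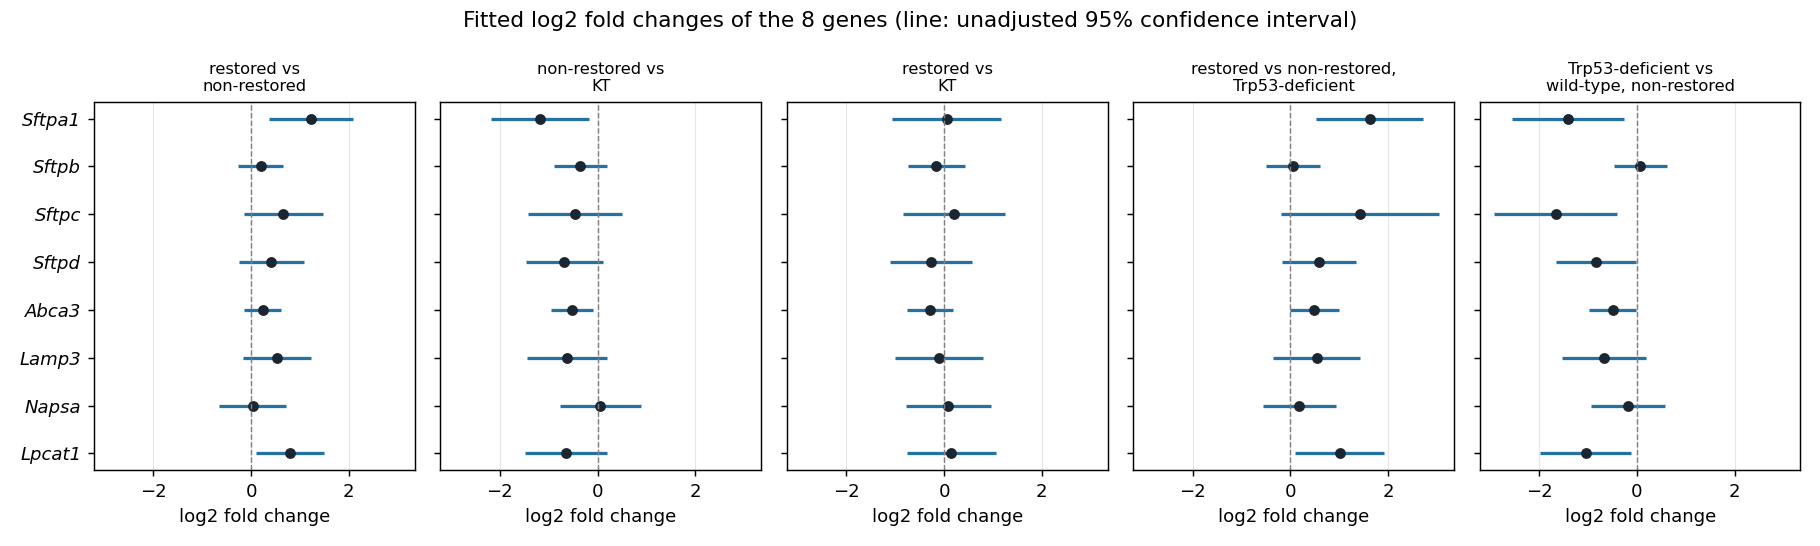
Points are fitted log2 fold changes of the 8 genes in 5 comparisons and lines are 95% intervals, with no adjustment for multiple testing. For restored against non-restored, *Sftpa1* (1.23) and *Lpcat1* (0.80) are farthest to the right and *Napsa* (0.03) is at 0, and in the *Trp53*-deficient panel *Sftpa1* (1.62) and *Sftpc* (1.43) are farthest to the right.

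Within the non-restored group the control arms could be compared with each other, which shows how far tamoxifen, FLPo-ERT2 and the mice of an arm moved the genes with *Lkb1* off in both. In edgeR 0 of 8 passed (0.00791% of all genes did), and DESeq2 called 0. *Sftpb* alone had an unadjusted p under 0.05 (4.61% of all genes). It ran from 1987 to 6017 CPM in the tamoxifen arm and from 4774 to 10585 CPM in the vehicle arm, a log2 fold change of -0.58 (SE 0.27). It was -0.35 without non-restored library 8 and -0.37 without non-restored library 4. The other 7 lay between -0.19 for *Napsa* and 0.36 for *Sftpa1*. Non-restored library 8 belongs to the tamoxifen arm. With the vehicle arm as the only control, *Sftpa1* passed in restored against non-restored (log2 fold change 1.38, adjusted p = 0.0419 in edgeR), and *Sftpa1* (-1.32, adjusted p = 0.0430) and *Abca3* (adjusted p = 0.0246) passed in non-restored against *KT*. Of all 12284 genes tested, 196 and 653 passed in these 2 comparisons with the vehicle arm alone. With the tamoxifen arm as the only control the *Sftpa1* values were 1.02 (adjusted p = 0.508) and -0.97 (adjusted p = 0.482). Set directly against each other, the arms differed by a log2 fold change of 0.36 (SE 0.55) in *Sftpa1* and 0.19 (SE 0.24) in *Abca3*.

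In *Trp53*-deficient tumors *Sftpa1* and *Sftpc* were higher in every restored than in every non-restored animal. Summed per animal, *Sftpa1* was 4602, 5442, 2249 and 1202 CPM in the 4 non-restored and 12760, 7609, 6164 and 14264 CPM in the 4 restored animals. *Sftpc* was 7242, 12785, 6297 and 605 CPM without and 22774, 16871, 13914 and 17918 CPM with restoration. By animal, the ranges of both genes did not overlap, which held for 3.62% of the 12518 genes tested, and the other 6 genes overlapped. By library both did overlap. Non-restored library 3 held *Sftpc* at 20198 CPM and *Sftpa1* at 10645 CPM, within the restored ranges of 14015 to 22774 CPM and 6209 to 14226 CPM. Log2 fold changes were 1.62 for *Sftpa1* (SE 0.49, 95% interval 0.52 to 2.72) and 1.43 for *Sftpc* (SE 0.71, 95% interval -0.19 to 3.05), each with an adjusted p of 0.803 in edgeR. *Lpcat1* followed with 1.00 (SE 0.40), and *Sftpb* (0.05, SE 0.25) and *Napsa* (0.18, SE 0.33) were lowest. With 4 animals a group, edgeR called 0 of 8 and 0.0% of all genes, and DESeq2 called 0 of the 8. *Sftpa1* and *Lpcat1* had an unadjusted p under 0.05, which 5.98% of all genes had. All 8 log2 fold changes were above 0, with a median of 0.56 beside 0.02 over all genes.

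The effect of restoration was not shown to differ between the *Trp53* backgrounds. The interaction term passed for 0 of 8 genes and 0.0% of all genes in edgeR, 0 of the 8 had an unadjusted p under 0.05 (3.09% of all genes) and DESeq2 called 0. Its log2 values ran from -0.19 for *Sftpb* (95% interval -0.99 to 0.61) to 0.73 for *Sftpc* (95% interval -0.93 to 2.40). These intervals include differences as large as the effects themselves.

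Without restoration, *Trp53*-deficient cells had lower fitted levels than *Trp53* wild-type cells for 7 of the 8 genes, and none passed the test in edgeR (0 of 8, 0.598% of all genes). It was -1.66 on the log2 scale for *Sftpc* (SE 0.61, adjusted p = 0.169), -1.41 for *Sftpa1* (SE 0.55, adjusted p = 0.195) and -1.05 for *Lpcat1* (SE 0.45, adjusted p = 0.235), and it was 0.07 for *Sftpb* (SE 0.26, 95% interval -0.48 to 0.61). DESeq2 called 1, *Sftpc* (adjusted p = 0.0419), where it called 419 of all 13698 genes, and 5 had an unadjusted p under 0.05 in edgeR (17.7% of all genes). The count turned on 1 library of the wild-type side. Without non-restored library 8, edgeR called 5 of 8, *Sftpa1*, *Sftpc*, *Sftpd*, *Abca3* and *Lpcat1*, with *Sftpc* at -1.82 (adjusted p = 0.0257). Calls rose over all genes as well, from 82 of 13705 with library 8 to 1450 of 13427 without it. Between the restored groups 0 of 8 passed in edgeR (0.372% of all genes) and in DESeq2, and 0 had an unadjusted p under 0.05 (15.5% of all genes). There the log2 fold changes ran from -1.05 for *Sftpa1* through -0.93 for *Sftpc* and -0.87 for *Lpcat1* to -0.08 for *Napsa*. Because the *Trp53*-deficient tumors were collected earlier, tumor age and genotype cannot be told apart.

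The widest differences lay between single libraries. Non-restored library 8 held *Sftpa1* at 564 CPM, which is 5.10% of the median of the other 9 libraries of its group. For *Sftpc* (1489 CPM) the value was 6.51%, for *Sftpd* 9.12%, for *Lamp3* 9.85%, for *Lpcat1* 10.6% and for *Napsa* 12.8%. *Sftpb* (41.3%) and *Abca3* (37.7%) were nearest to the other libraries. In the same library the regulator genes *Nkx2-1* and *Cebpa* stood at 22.7% and 25.4% of the median of the others, and *Foxa2* at 82.3%. Library 7 of the *Trp53*-deficient non-restored group was also lowest of its group in *Sftpc* (607 CPM) and *Sftpa1* (1206 CPM), and its *Nkx2-1* was 142 CPM, beside 115 and 110 CPM in libraries 1 and 2 and 153 to 201 CPM in libraries 3 to 6.

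*Muc5b* moved with some of these values. It stood at 6602 and 12933 CPM in the 2 libraries just described and at 1375 CPM in non-restored library 4, the next lowest non-restored library for *Sftpa1* and *Sftpc*. Restored libraries 4 and 5, the lowest of their group for *Sftpa1*, *Sftpc* and *Lpcat1*, held *Muc5b* at 1035 and 1227 CPM, and the other 5 restored libraries held 1.55 to 10.6 CPM. In *Trp53*-deficient restored tumors library 3, the lowest of the 4 in both genes, held 1075 CPM against 30.9 to 294 CPM in the others. It did not do so in *Trp53*-deficient non-restored libraries 1 and 2, where *Sftpc* was 783 and 881 CPM and *Muc5b* 165 and 146 CPM, below the 367 to 575 CPM of libraries 3 to 5. Library 6 of this group held less *Muc5b* still, at 84.4 CPM, with *Sftpc* at 6337 CPM. The summed level of all 10 airway markers ran from 119 to 500 CPM in *KT*, 200 to 6726 CPM in non-restored, 78.8 to 1715 CPM in restored, 223 to 13092 CPM in *Trp53*-deficient non-restored and 206 to 1407 CPM in *Trp53*-deficient restored libraries. The 2 highest sums, of non-restored library 8 and *Trp53*-deficient non-restored library 7, were nearly all *Muc5b*. *Muc5ac* was 27.8 and 32.7 CPM in restored libraries 4 and 5 and 44.3 CPM in *Trp53*-deficient restored library 3. In *Trp53*-deficient non-restored libraries 1 and 2 it was 8.79 and 10.4 CPM. The part of airway or mucin transcripts in the surfactant values was not tested.

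**Figure D3:**
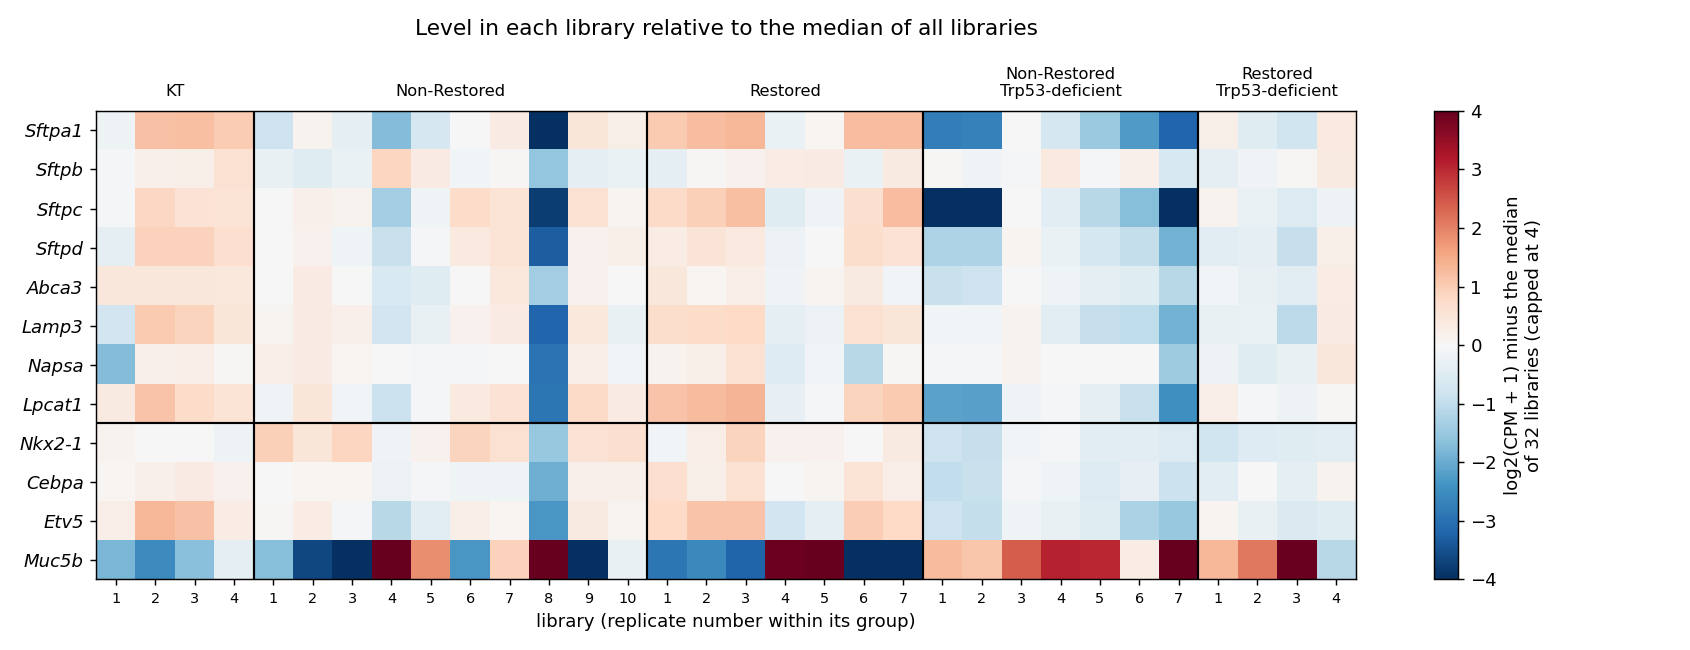
Rows are the 8 genes, 3 regulators and *Muc5b*, columns are the 32 libraries by group and replicate number, and color is log2(CPM + 1) minus the median of all libraries, capped at 4 in both directions. Non-restored library 8 and *Trp53*-deficient non-restored libraries 1, 2 and 7 are dark blue in *Sftpc*, *Sftpa1* and *Lpcat1*, *Sftpb* is pale in nearly every column, and *Muc5b* is dark red in non-restored 4 and 8, restored 4 and 5, library 7 of the *Trp53*-deficient non-restored group and library 3 of the *Trp53*-deficient restored group.

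Libraries of a single animal also differed. By their titles, *Trp53*-deficient non-restored libraries 1, 2 and 3 came from the same mouse. *Sftpc* was 783 and 881 CPM in libraries 1 and 2 and 20198 CPM in library 3, which is 24.3 times their mean. The ratio was 6.52 for *Sftpa1*, 4.01 for *Lpcat1*, 2.57 for *Sftpd* and 1.81 for *Abca3*. For *Lamp3* (1.19), *Napsa* (1.15) and *Sftpb* (0.97) the 3 libraries were nearly equal, so that *Sftpb* stood at 5973, 5322 and 5492 CPM. Outside the 8 genes, the ATII phosphate transporter *Slc34a2* followed with a ratio of 6.81 and *Lyz2* with 10.96. With this mouse represented by library 3 alone, restored against non-restored *Trp53*-deficient tumors gave a log2 fold change of 1.07 for *Sftpa1* and 0.85 for *Sftpc*, and with libraries 1 and 2 it was 1.97 and 1.81. None of these passed the test in edgeR (adjusted p 0.703 to 0.997).

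The ratio of *Sftpc* to *Sftpb*, both in TPM, does not depend on library scaling. It ran from 7.69 through 8.94 to 12.2 in *KT*, from 1.64 through 10.5 to 15.2 in non-restored and from 4.54 through 14.5 to 17.6 in restored libraries. In *Trp53*-deficient non-restored libraries it ran from 0.289 through 2.10 to 8.10, and with restoration from 5.15 through 6.26 to 11.4. Thus *Sftpb* exceeded *Sftpc* per length in 3 libraries, *Trp53*-deficient non-restored 1, 2 and 7. A ratio within a library shows unequal change and does not show which gene moved.

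**Figure D4:**
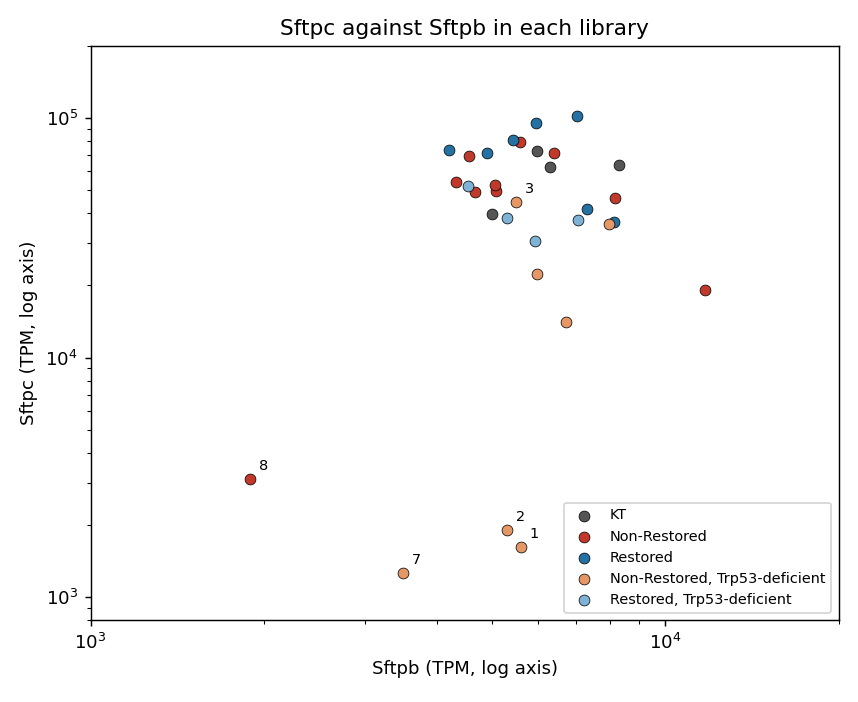
Each point is 1 library, with *Sftpb* in TPM on the horizontal and *Sftpc* in TPM on the vertical log axis, colored by group, and numbers name 5 non-restored libraries of both *Trp53* backgrounds. Libraries 1 and 2 of the *Trp53*-deficient non-restored group sit far below the others at a *Sftpb* level near that of most libraries, while library 7 and non-restored library 8 are low on both axes.

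Within groups the 8 genes varied unequally. Over the 21 *Trp53* wild-type libraries the pooled within-group SD of log2 CPM was 1.11 for *Sftpa1* and 1.05 for *Sftpc*, above 92.2% and 90.6% of the genes tested, whose median was 0.43. *Sftpb* (0.48) and *Abca3* (0.40) lay near that median. Once group means were removed, *Sftpa1* had a Pearson r of 0.95 with *Lpcat1*, 0.95 with *Sftpd* and 0.89 with *Sftpc* over the 32 libraries, and these were 0.90, 0.92 and 0.84 without the 2 most distant libraries. *Sftpb* had an r of 0.36 with *Sftpa1* and 0.37 with *Sftpc*, which became -0.20 and -0.09 without them. These values are descriptions, since libraries share animals, and non-restored library 8 and *Trp53*-deficient non-restored library 7 were the distant pair. The genes outside the 8 whose pattern was most like their mean were *Tmem50b* (r = 0.95), *Dram1* (0.95), *Nrp1* (0.93), *Slco4c1* (0.93) and *Elovl1* (0.93), of 13247 compared. Without the distant pair these values were 0.91, 0.83, 0.84, 0.84 and 0.86.

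Regulators of the surfactant genes were examined next. NKX2-1 is the homeobox factor of lung epithelium, FOXA2 a forkhead factor, C/EBPα (*Cebpa*) a bZIP factor and ETV5 an ETS factor that maintains ATII cells. *Cebpa* was 103 to 125 CPM in *KT*, 24.5 through 94.8 to 113 CPM in non-restored and 97.9 through 119 to 158 CPM in restored libraries, and restored against non-restored differed by 0.49 on the log2 scale (SE 0.19, adjusted p = 0.216 in edgeR). *Etv5* gave 0.79 (SE 0.32, adjusted p = 0.235) and *Nkx2-1* -0.19 (SE 0.23, adjusted p = 0.770). *Nkx2-1* stood at 192 through 234 to 383 CPM in restored and at 71.3 through 312 to 401 CPM in non-restored libraries. Over libraries, with group means removed, the r with the mean of the 8 genes was 0.89 for *Cebpa*, 0.83 for *Etv5*, 0.79 for *Nkx2-1* and 0.26 for *Foxa2*. Non-restored library 8 was the lowest of its group in *Cebpa* (24.5 CPM), *Nkx2-1* (71.3 CPM) and *Etv5* (46.1 CPM). These r were not computed without it and *Trp53*-deficient non-restored library 7, so how far they rest on these libraries was not tested. Of 18 regulators, 0 passed in either direction for restored against non-restored in edgeR (1.87% of all genes passed), 2 had an unadjusted p under 0.05 (15.1% of all genes), and DESeq2 called 0. For non-restored against *KT* 1 passed (5.86% of all genes), *Foxa2* (log2 fold change 0.49, SE 0.14, adjusted p = 0.0372), a call that was lost in 7 of 14 fits that left out 1 library. Those were *KT* 1, 3 and 4 and non-restored 6, 7, 9 and 10, with adjusted p of 0.0509 to 0.152, and among females alone it was 0.458.

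Genes that make and recycle the lipid were split. *Prdx6*, a peroxiredoxin with phospholipase activity that degrades surfactant lipid for reuse, was 345 to 464 CPM in *KT*, 155 through 183 to 227 CPM in non-restored and 211 through 287 to 346 CPM in restored libraries. It was lower in non-restored than in *KT* cells (log2 fold change -1.13, SE 0.12, adjusted p = 4.08e-06) and higher in restored than in non-restored cells (0.67, SE 0.10, adjusted p = 0.000755, both edgeR). *Pcyt1a*, the rate-limiting enzyme of phosphatidylcholine synthesis, was 71.9 to 126 CPM in *KT*, 37.7 through 64.2 to 99.2 CPM in non-restored and 81.4 through 132 to 148 CPM in restored libraries. It rose with restoration (0.86, SE 0.18, adjusted p = 0.0117 in edgeR). Its call was lost without restored libraries 1 and 6 (adjusted p = 0.0772) and with the tamoxifen arm as the only control (adjusted p = 0.180), but in no fit without a single library.

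*Cds1*, which makes CDP-diacylglycerol for other phospholipids, and the calcium channel gene *Orai1* went the other way. *Cds1* was 25.3 to 58.1 CPM in *KT*, 54.5 to 104 CPM in non-restored and 29.0 to 60.5 CPM in restored libraries, and *Orai1* was 9.58 to 29.1, 26.0 to 49.0 and 16.2 to 26.1 CPM. Restored against non-restored, the log2 fold change was -0.71 for *Cds1* (SE 0.18, adjusted p = 0.0395 in edgeR) and -0.75 for *Orai1* (SE 0.19, adjusted p = 0.0368). Both calls were fragile. *Cds1* lost its call in 12 of 17 fits without 1 library (restored 1, 2, 4, 5, 6 and 7 and non-restored 2, 4, 5, 7, 9 and 10, adjusted p 0.0516 to 0.0909) and *Orai1* in 9 of 17 (restored 3, 4, 5, 6 and 7 and non-restored 2, 4, 5 and 10, adjusted p 0.0559 to 0.0837). Against *KT*, non-restored cells had more *Cds1* (0.95, SE 0.23, adjusted p = 0.0149) and *Orai1* (0.87, SE 0.24, adjusted p = 0.0331). Without *KT* 1, 3 or 4 these calls were lost, at adjusted p up to 0.0818 and 0.139, and among females alone they were at 0.489 and 0.466, with *Cds1* at a log2 fold change of 0.47. *Gpam*, a mitochondrial acyltransferase of glycerolipid synthesis, was 4.80 to 10.98 CPM in *KT*, 13.97 to 66.99 CPM in non-restored and 24.8 to 86.8 CPM in restored libraries. It rose against *KT* both without (2.45, SE 0.45, adjusted p = 0.0023) and with restoration (2.61, SE 0.47, adjusted p = 0.0104). The second call was lost without *KT* 1 or 4 (adjusted p = 0.0670 and 0.0611), the first with the tamoxifen arm as the only control (0.0521), and both among females alone (0.198 for the first and 0.425 for the second).

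**Figure D5:**
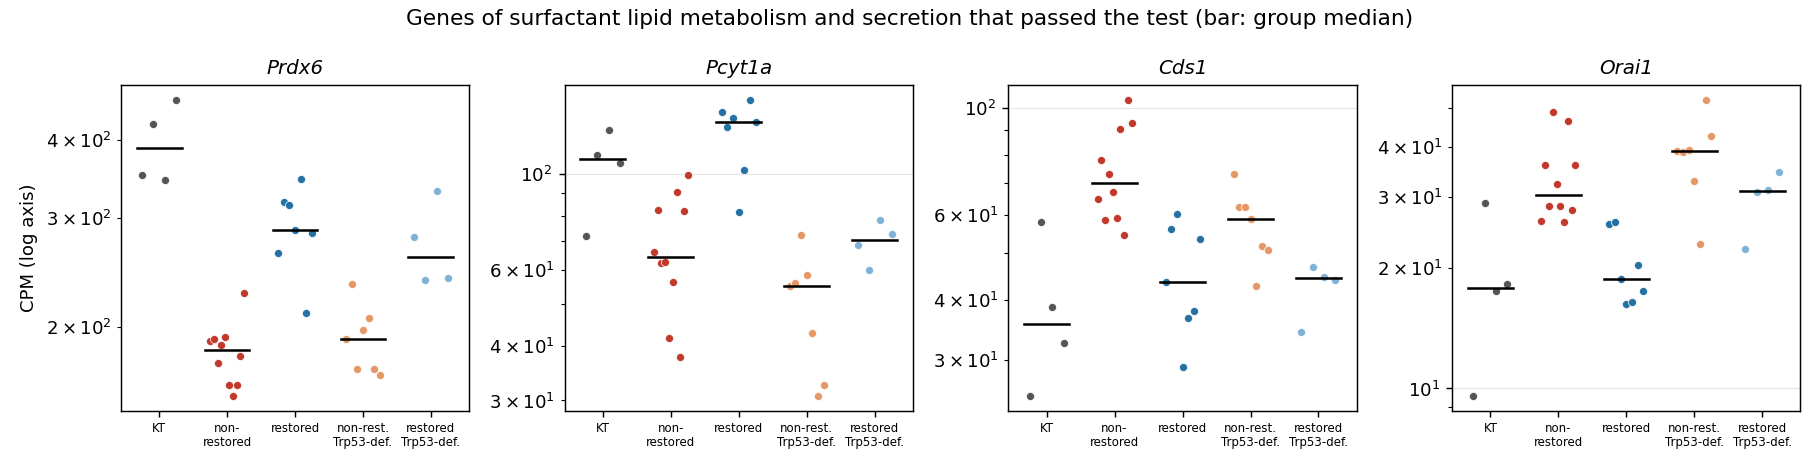
Each point is 1 library, in CPM on a log axis, for 4 genes of surfactant lipid metabolism and secretion in the 5 groups, with bars at group medians. *Prdx6* in non-restored libraries (155 to 227 CPM) lies below all *KT* libraries, *Pcyt1a* is highest in restored libraries, and the medians of *Cds1* and *Orai1* are higher without than with restoration in both *Trp53* backgrounds.

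By list, the surfactant phospholipid synthesis genes gave 1 higher and 1 lower call among 27 tested of 30 for restored against non-restored (1.87% of all genes were called), with a median log2 fold change of -0.01. For non-restored against *KT*, where 5.86% of all genes were called, they gave 2 higher and 1 lower, the lower being *Cds2* (-0.65, SE 0.16, adjusted p = 0.0196). Its call was lost in 7 of 26 alternative fits, among them without *KT* 1 (0.157), with effective length offsets (0.354), with limma on TPM (0.455) and among females alone (0.388). The list of surfactant secretion and pool size held 25 tested genes, with 1 higher and 1 lower call for restored against non-restored. Against *KT* it held 1 higher and 3 lower, among them the docking GTPase *Rab27a* (-0.93, SE 0.20, adjusted p = 0.00618, lost without *KT* 3 at 0.0507 and among females alone at 0.164) and the purinergic receptor *P2ry2* (-0.82, SE 0.24, adjusted p = 0.0426). *P2ry2* lost its call without *KT* 1, 2 or 3 or non-restored 1, 3, 4, 7 or 10 (adjusted p 0.0538 to 0.321). Of 29 tested genes of lamellar body biogenesis and protein processing, none passed for restored against non-restored or for non-restored against *KT* in edgeR (3 and 5 had an unadjusted p under 0.05, as did 15.1% and 20.8% of all genes) or in DESeq2. The list medians were 0.13 and -0.10. In the *Trp53*-deficient comparison none of the genes of these 3 lists or the regulators passed in edgeR or DESeq2. There 2, 1, 1 and 1 of them had an unadjusted p under 0.05 in edgeR for synthesis, biogenesis, secretion and regulators, against 5.98% of all genes.

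A list of 12 other ATII genes was examined beside the 8. Its median log2 fold change was 0.69 for restored against non-restored and -0.86 for non-restored against *KT*, with 10 of 12 above and 11 of 12 below 0. In edgeR 1 and 2 passed (1.87% and 5.86% of all genes), and 9 and 6 had an unadjusted p under 0.05 (15.1% and 20.8%). DESeq2 called 3 (*Chil1*, *Il33*, *Lyz2*) and 4 (*Chil1*, *Il33*, *Lcn2*, *Lyz2*), where it called 467 and 1083 of all 12633 genes. In the *Trp53*-deficient comparison edgeR called 0 and DESeq2 called 1, *Cxcl15* (23 of all 12493 genes). There 3 had an unadjusted p under 0.05 in edgeR (5.98% of all genes). Of the 12 genes, *Lyz2*, a lysozyme of ATII cells and macrophages, passed for restored against non-restored (1.83, SE 0.44, adjusted p = 0.0313 in edgeR). It lost this call without restored 1, 2, 3, 6 or 7 or non-restored 1, 3 or 5 (adjusted p 0.0509 to 0.0710). *Lcn2* (-1.74, SE 0.31, adjusted p = 0.00159) and *Lyz2* (-1.73, SE 0.50, adjusted p = 0.0431) were lower in non-restored cells than in *KT*. The *Lcn2* call was kept without any single library, and the *Lyz2* call was lost in 10 of 14 such fits (*KT* 1, 2, 3 and 4 and non-restored 1, 3, 4, 5, 7 and 10, adjusted p 0.0515 to 0.126) and among females alone (0.121). For restored against non-restored the *Lyz2* call was also lost with the tamoxifen arm as the only control (0.345) and without restored libraries 1 and 6 (0.155).

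Of 12 genes of alveolar type I cells, the flat gas-exchange cells, 1 fell for restored against non-restored, *Emp2* (-0.62, SE 0.15, adjusted p = 0.0385 in edgeR), and this call was lost in 13 of 17 fits without 1 library (restored 1, 2, 3, 4, 6 and 7 and non-restored 1, 2, 3, 4, 7, 9 and 10, adjusted p 0.0528 to 0.0923). Against *KT*, *Emp2* (0.95, SE 0.19, adjusted p = 0.00475) and *Cldn18* (0.58, SE 0.15, adjusted p = 0.0234) were higher and *Pdpn* (-2.59, SE 0.68, adjusted p = 0.0269) was lower in non-restored cells. Of all genes, 1.87% passed for restored against non-restored and 5.86% for non-restored against *KT*. The *Emp2* call was lost among females alone (adjusted p = 0.222) and in no other alternative. *Cldn18* lost its call without *KT* 1 or 3 (adjusted p = 0.115 and 0.0599), with the tamoxifen arm as the only control (0.0702) and among females alone (0.388). *Pdpn* lost its call in 9 of 25 alternative fits, among them without *KT* 1, 3 or 4 (adjusted p 0.0652 to 0.108) and among females alone (0.445). Summed type I markers ran from 2813 to 5860 CPM over the 3 *Trp53* wild-type groups.

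Transcripts of other cell types, some of them removed by the sort, were summed in each library. None of the 31 tested markers of airway cells, alveolar macrophages, other blood cells, endothelial cells or fibroblasts passed for restored against non-restored or non-restored against *KT* in edgeR (1.87% and 5.86% of all genes did). At an unadjusted p under 0.05 in edgeR there were 5 and 2, against 15.1% and 20.8% of all genes. DESeq2 called 0 and 1, *Muc5b* (467 and 1083 of all 12633 genes). Summed alveolar macrophage markers were 22.1 to 111 CPM in *KT*, 15.5 to 474 CPM in non-restored and 16.2 to 1497 CPM in restored libraries. Other blood cell markers reached at most 57.8 CPM, in restored library 1, endothelial markers 143 CPM and fibroblast markers 1558 CPM. Red blood cell markers were at or below 6.97 CPM, and *Ly6g* was at 0 in every library. Without restored libraries 1 and 6, the highest in macrophage markers, *Sftpa1* stood at a log2 fold change of 1.14 (adjusted p = 0.348 in edgeR) for restored against non-restored, and it was 1.23 with them.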

How the data were processed

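RNA was sequenced from sorted mouse lung tumor cells in 32 libraries. The authors aligned paired-end reads to mm10 with STAR 2.6.1d and estimated abundance with RSEM 1.2.30. Per the file headers the deposited tables hold expected counts, which RSEM estimates for each gene and the authors did not normalize. On average 5.57% of a library's values were not whole numbers. The deposited TPM values were scaled by the authors' RSEM run for effective gene length and library size. The 4 deposited comparison tables (fold changes and p-values) and 1 normalized table were not used.

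Expected counts were rounded. Genes were filtered with filterByExpr, libraries were scaled by TMM, and groups were compared by edgeR's quasi-likelihood test (edgeR 4.0.16, limma 3.58.1, R 4.3.3), with Benjamini-Hochberg adjustment over all genes tested and 0.05 as threshold. One fit held the *KT*, non-restored and restored groups (21 libraries). The libraries of a *Trp53*-deficient animal were summed, which left 4 animals against 4, and the interaction with *Trp53* was fitted over 25 units. These joined the summed animals with single libraries of the wild-type non-restored (10) and restored (7) groups. By the study's account those 2 groups held fewer mice than libraries, so units of unlike kind shared an estimate of the spread. The same holds for both comparisons of *Trp53*-deficient with wild-type tumors. Each SE was derived from the F statistic. CPM values use TMM over all 32 libraries. Total depth was 1302482 to 5943951 expected counts per library. Counting error was not compared with the spread between libraries, and low genes such as *Gpam* in *KT* (4.80 to 10.98 CPM) rest on few reads. No library pair was identical. The fits were tested on simulated data in which all genes had the same relative spread. This does not show how well changes in genes as variable as *Sftpa1* or *Sftpc* would be found. DESeq2 1.42.0, other scalings and filters, length offsets, limma on log2(TPM + 1), sex, arms and left-out libraries were tried as alternatives.

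The genes named from other lists were up to 4 a list with the smallest adjusted p under 0.05 in restored against non-restored, non-restored against *KT* or the *Trp53*-deficient comparison, besides *Nkx2-1*, *Foxa2*, *Cebpa* and *Etv5*, and the 5 genes of the highest r with the mean standardized residual of the 8 genes. The 8 genes and all lists were chosen with earlier results of these data known. Alternatives added after seeing the data left out restored libraries 1 and 6 or represented the first *Trp53*-deficient non-restored animal by part of its libraries.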

Additional observations from a re-analysis of the deposited data

Results flagged for a closer look

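The 8 genes were measured in the same libraries and most varied together, so their sets of values are not independent. Among 40 sets of values (8 genes in 5 groups, as log2 CPM), 9 held a lowest library whose gap to the next exceeded Dixon's critical value, where chance gives about 1 in 20 for a single set. Non-restored library 8 accounted for 6 of them, at log2 CPM of 9.14 for *Sftpa1* (next lowest 11.68), 10.54 for *Sftpc* (12.98), 6.80 for *Sftpd* (9.20), 7.91 for *Lamp3* (10.34), 6.33 for *Napsa* (9.17) and 6.87 for *Lpcat1* (8.90). In the same library *Muc5b* was at 6602 CPM and *Nkx2-1* at 71.3 CPM, and the part of either in these values was not tested.

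*KT* library 1 was lowest for *Sftpa1* at a log2 CPM of 13.21 (next lowest 14.42) and for *Napsa* at 7.54 (9.34). *Trp53*-deficient non-restored library 7 was lowest for *Napsa* at 7.87 (9.20).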

How the results depend on the processing

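The main result, that none of the 8 genes passed in any of the 8 comparisons, changed in 6 fits. Same-numbered libraries deviated together (r over 0.1) in 5 of 7 restored and non-restored pairs, where r ran from 0.05 to 0.50. They did so in 1 of 4 *KT* and non-restored pairs and 0 of 4 *KT* and restored pairs. In the same order, 0 of 7, 2 of 4 and 0 of 4 libraries correlated best with their own number. These mixed values do not settle whether the numbers pair the libraries, and the main fits treated them as unpaired. With a replicate block, 1 gene (*Sftpa1*) passed in restored against non-restored (1.29, adjusted p = 0.0155 in edgeR) and 1 in non-restored against *KT* (-1.43, adjusted p = 0.0174). Of all 12636 genes, 270 and 705 passed with this block. With the vehicle arm as the only control 1 and 2 genes passed in the same comparisons (196 and 653 of all 12284 genes did). In *Trp53*-deficient against wild-type non-restored tumors DESeq2 gave 1 and the fits without a single library gave 0 to 5, with 5 without non-restored library 8. Of all genes, DESeq2 called 419 of 13698 there, and the fit without library 8 called 1450 of 13427.

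Of 1151 refitted log2 fold changes of the 8 genes, 1106 kept direction and side of the threshold, 11 newly passed and 34 changed sign, none of which had passed. For *Napsa*, restored against non-restored was -0.17 with a replicate block, -0.0352 with the vehicle arm alone and -0.10 to 0.16 without a single library. Non-restored against *KT* was -0.40 in females alone, -0.0592 with the tamoxifen arm alone and -0.23 to 0.21 without a single library. Restored against *KT* was -0.26 in females alone and -0.19 to 0.25. The other *Napsa* ranges without a single library or animal were -0.0829 to 0.29 for *Trp53*-deficient restoration, -0.33 to 0.0592 and -0.32 to 0.0445 for *Trp53* loss without and with restoration, and -0.39 to 0.18 between the arms. Restored against *KT*, *Sftpa1* was -0.14 with a replicate block, -0.23 in females alone, -0.0308 without restored libraries 1 and 6 and -0.17 to 0.18 without a single library. *Sftpc* was -0.0452 with the replicate block, *Lpcat1* -0.0785 in females alone, and *Lamp3* 0.0701 with limma on TPM and -0.35 to 0.11. *Sftpb* ranged from -0.12 to 0.15 for *Trp53*-deficient restoration and from -0.0424 to 0.23 for *Trp53* loss without restoration, and *Sftpa1* between the arms was -0.36 with limma on TPM. The cause of these changes was not tested.

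DESeq2 called more genes than edgeR, 467 against 236 for restored against non-restored, 1083 against 741 for non-restored against *KT*, 168 against 58 for restored against *KT*, 23 against 0 for *Trp53*-deficient restoration, 419 against 82 and 216 against 51 for *Trp53* loss, and 12 against 1 between the arms. Limma on log2(TPM + 1) moved the median of all genes from 0.03 to 0.15 for non-restored against *KT* and called 759 higher and 261 lower there, where edgeR called 301 and 440. Of 537 refits of the genes named from other lists, 156 lost the call and the others kept it.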
